A study of Mus musculus with 2 samples.

Results

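Transcripts of 6 genes that belong to the COP9 signalosome, the cullin ubiquitin ligases and the proteasome were examined in single LβT2 gonadotrope cells after GnRH or vehicle. The genes were Cops5, Cops7b, Cops8, Cul3, Ube2f and Psmd1. They are 6 of 1068 genes analysed here, taken by symbol for their place in these pathways. The choice was not blind to the data: the set was selected on the GnRH over vehicle ratios and levels of these same libraries, in which Cops7b was already known to be among the lowest. The levels and ratios below are therefore descriptions. LβT2 cells are an immortalised mouse line derived from anterior pituitary gonadotropes, the cells that secrete luteinising and follicle-stimulating hormone, so a single line stands for the cell type. One sample of cells at passage 15 received 2 nM GnRH and another at the same passage received vehicle, with 40 min of treatment, and each gave 1 library by GEM Drop-seq, a droplet 3′ assay in which every captured transcript molecule is counted once through its unique molecular identifier (UMI).

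The COP9 signalosome is a multi-subunit enzyme that removes the ubiquitin-like protein NEDD8 from cullins. Cullins are the scaffolds of a large class of ubiquitin ligases, and cycles of NEDD8 attachment and removal switch these ligases on and off and allow their substrate receptors to be exchanged. Proteins that carry ubiquitin chains built by such ligases are degraded by the proteasome. Cops5 encodes the metalloprotease subunit that cleaves NEDD8, and Cops7b and Cops8 encode scaffold subunits with a PCI domain. Cops7b has a paralog, Cops7a, that can take its place in the complex. Cul3 works with adaptors of the BTB-domain class. Ube2f is an E2 enzyme that conjugates NEDD8, and Psmd1 is the largest non-ATPase subunit of the proteasome regulatory particle.

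The vehicle library held 1992 cells and the GnRH library 1889, with 1126320 and 1118763 UMIs over the analysed genes. The genes represent 3.81% of the gene list and lie on chromosome 1 where placed, so CPM (counts per 1000000 UMIs of the analysed genes) refer to this part of the transcriptome and are not CPM of the whole library. Median UMIs per cell were 543.5 and 561. Of 11 gonadotrope markers, 3 were among the analysed genes and all were present: Scg2 was detected in 100% of cells of both libraries, Inhbb in 76.4% and 72.7%, and Inha in 49.4% and 50.9% of vehicle and GnRH cells. The fibroblast marker Col3a1 had 0 UMIs. The defining hormone genes Lhb, Fshb and Cga were not analysed here. Because each treatment had 1 library, no test was run and no difference has a replicate check. Intervals are 95% intervals and cover counting error only. Treatment and library cannot be told apart.

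The 6 genes lie on chromosome 1 of GRCm38. Cops5 (ENSMUSG00000025917) is at 10024601 to 10038168 on the minus strand, and its 5′ end overlaps Cspp1, a protein-coding gene on the other strand. The others lie much further along the chromosome: Cul3 (ENSMUSG00000004364) at 80264923 to 80340480 (minus), Psmd1 (ENSMUSG00000026229) at 86064387 to 86139151 (plus), Cops7b (ENSMUSG00000026240) at 86582904 to 86609375 (plus), Cops8 (ENSMUSG00000034432) at 90602981 to 90613341 (plus) and Ube2f (ENSMUSG00000034343) at 91250304 to 91290337 (plus). No annotated gene overlaps Cops7b, Cops8 or Ube2f. Cul3 contains 2 unclassified transcripts on its own strand. Psmd1 overlaps 4 annotated genes, among them Htr2b on the other strand and, across its 3′ end on the same strand, the protein-coding gene Gm21972, so the assignment of Psmd1 reads is uncertain. One more COP9 gene was among those analysed under its older symbol Myeov2 (ENSMUSG00000073616; 92637145 to 92641985, minus). Its current name is Cops9, and it encodes the smallest subunit of the complex. It is given beside the 6 genes in several of the comparisons because it allows 4 subunits of one complex to be compared.

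To show what lies in front of the genes, stretches before the starts are printed for the 4 genes in which at least 118 bases of flank lie outside annotated transcripts. They come from RefSeq promoter windows (GRCm38.p6) that run from 250 bases before to 50 bases after a start. The Cul3 stretch ends at the base before the RefSeq start, which lies upstream of the start given above, and the other 3 end at the base before the start given above. No window was found for Cops5. The Cops7b stretch is shown because Cops7b is the gene that stood apart in the libraries, and the others serve for comparison. Each is written 5′ to 3′ on the strand of its gene, and capitals mark the motifs named below. The positions are chr1:86582786-86582903 for Cops7b (plus), chr1:92641986-92642135 for Cops9 (minus), chr1:80340691-80340840 for Cul3 (minus) and chr1:91250154-91250303 for Ube2f (plus).
Cops7b: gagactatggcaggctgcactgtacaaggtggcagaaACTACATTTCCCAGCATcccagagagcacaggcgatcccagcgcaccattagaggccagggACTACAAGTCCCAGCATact
Cops9: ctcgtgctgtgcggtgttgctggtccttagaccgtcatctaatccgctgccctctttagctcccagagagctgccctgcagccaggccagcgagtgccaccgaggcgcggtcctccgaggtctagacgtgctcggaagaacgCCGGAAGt
Cul3: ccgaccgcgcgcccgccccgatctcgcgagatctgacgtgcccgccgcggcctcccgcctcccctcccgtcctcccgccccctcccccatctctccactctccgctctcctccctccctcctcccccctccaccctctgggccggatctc
Ube2f: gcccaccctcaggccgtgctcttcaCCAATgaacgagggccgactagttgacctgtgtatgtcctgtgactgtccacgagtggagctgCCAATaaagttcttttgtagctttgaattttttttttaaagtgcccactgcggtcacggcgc

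The Cops7b stretch holds 2 copies of a 17-base element of the type bound by the zinc finger factor ZNF143 (both runs of capitals), which was searched for on both strands. The pattern searched was written after this sequence had been seen. The Cul3 stretch had the highest GC content of the 4, at 76.0%, against 55.1% for Cops7b, 63.3% for Cops9 and 51.3% for Ube2f. Of 32851 promoter windows, 114 hold the element, or 0.347%, and 7 hold at least 2 copies. Counted from the RefSeq start, the copies before Cops7b lie at -98 to -82 and at -37 to -21. The neighbouring gene Pde6d, which encodes a chaperone of prenylated proteins, starts on the other strand 135 bases away, and the same 2 copies fall in its window. Sites for factors that GnRH signalling is known to engage were searched in the full windows of the 6 genes that have one (the 5 other than Cops5, and Cops9). The cyclic AMP response element TGACGTCA, the EGR site GCGTGGGCG and the serum response element were in 0 of these genes' windows, against 1.79%, 0.612% and 1.63% of all windows. The AP-1 site TGANTCA was in the window of 1 gene, Cops8, against 7.81% of all windows. The ETS site CCGGAAG was in the windows of 3 genes, Cops8, Ube2f and Cops9, against 8.86%. A CCAAT box was in those of Ube2f and Cops9, against 37.4%. The antioxidant response element TGACNNNGC was in the window of Ube2f alone, against 12.4%, the TATA box TATAAA in that of Psmd1 alone, against 13.6%, and an NRF1 site in 0, against 0.971%. All motifs were searched on both strands. The 6 genes are counted by gene and the shares by window, and Ube2f and Cops9 have more than 1 window, so the 2 are not in like units. These are matches of letters and not measured binding.

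With this in hand, the levels of the COP9 subunits were compared first. For Cops5, 2696 vehicle and 2485 GnRH UMIs were counted. Its level was 2394 CPM with vehicle (exact Poisson, 2304 to 2486) and 2221 CPM with GnRH (2135 to 2310). The vehicle interval and the GnRH interval overlapped narrowly. The log2 ratio of GnRH over vehicle was -0.11 (-0.19 to -0.03).

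Cops8 gave 2747 vehicle and 2712 GnRH UMIs, or 2439 CPM (2349 to 2532) and 2424 CPM (2334 to 2517). The 2 intervals nearly coincided, and the log2 ratio was -0.0088 (-0.086 to 0.068). Cops9, the most abundant of the 4, gave 15831 vehicle and 14667 GnRH UMIs. Its level was 14056 CPM (13837 to 14276) against 13110 CPM (12899 to 13324), a log2 ratio of -0.10 (-0.13 to -0.07).

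Cops7b differed from the other 3 subunits. Its UMIs numbered 997 with vehicle and 663 with GnRH. The level was 885 CPM (831 to 942) in the vehicle library and 593 CPM (548 to 639) in the GnRH library, intervals that lie well apart. The ratio was 0.669 (0.606 to 0.739), a log2 ratio of -0.58 (-0.72 to -0.44) and a percent change of -33.1%.

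These ratios have to be read against all genes. Of 409 genes with at least 100 UMIs over both libraries, the median log2 ratio was -0.09, with an interquartile range of -0.19 to 0.00084. Of these genes, 155 (37.9%) had an interval below 0 and 31 (7.58%) one above 0, so an interval that excludes 0 on the lower side was common. The interval of Cops5 and that of Cops9 held the median of all genes. The interval of Cops8 lay just above it, with a lower bound of -0.086. Cops7b was 8th lowest of the 409. Among the 202 genes with at least as many UMIs as Cops7b it had the lowest ratio, and the next was Capn10, at -0.37 (-0.50 to -0.24). Just below it in abundance, Bcs1l, named here after its values were seen, had a like ratio of -0.55 (-0.70 to -0.39), from 886 vehicle and 603 GnRH UMIs.

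**Figure D1:**
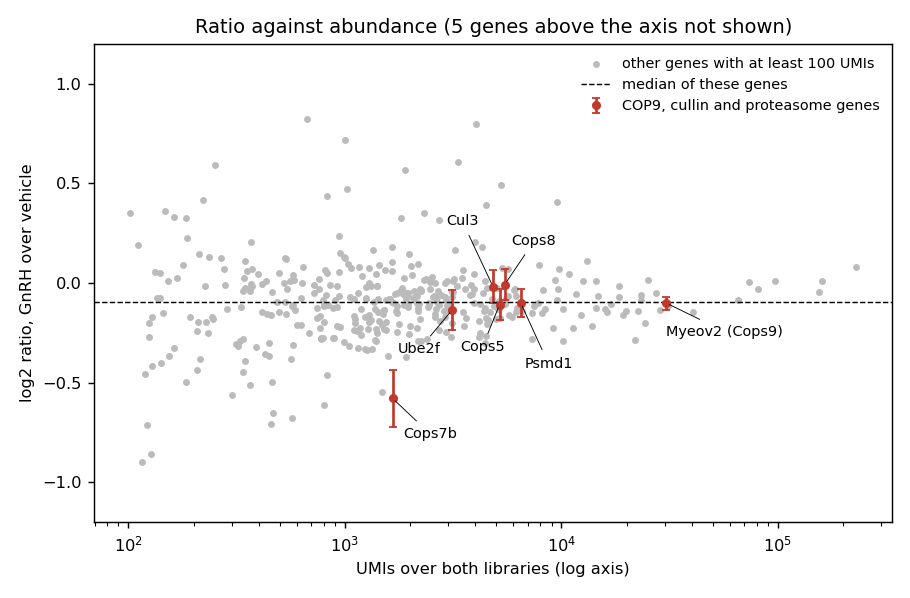
Log2 ratio of GnRH over vehicle (y axis) against UMIs over both libraries (x axis, log scale) for 409 genes with at least 100 UMIs; red points with bars are the 6 genes and Myeov2 (Cops9) with 95% counting intervals, and the dashed line is the median of -0.09. Another 5 genes lie above the axis. Cops7b lies at -0.58, below most genes of like abundance, while the other red points lie between -0.14 and -0.0088.

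The 3 other genes had ratios near that median. For Cul3, the scaffold of BTB-adaptor ligases, 2439 vehicle and 2392 GnRH UMIs gave 2165 CPM (2080 to 2253) and 2138 CPM (2053 to 2226). The GnRH over vehicle log2 ratio of Cul3 was -0.018 (-0.10 to 0.064). The levels of Cul3 in the 2 libraries were thus not distinguishable at this depth.

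Ube2f had 1640 UMIs with vehicle and 1483 with GnRH, or 1456 CPM (1386 to 1528) and 1326 CPM (1259 to 1395), and its intervals overlapped narrowly. The log2 ratio was -0.14 (-0.24 to -0.03). Psmd1 had 3361 and 3118 UMIs, or 2984 CPM (2884 to 3087) and 2787 CPM (2690 to 2887), again with a narrow overlap. Its log2 ratio was -0.10 (-0.17 to -0.03). The intervals of Ube2f, Psmd1 and Cul3 each held the median of all genes. Under TMM scaling, which moves that median to -0.0033, the log2 ratios of Cops8 and Cul3 turned positive, at 0.083 and 0.073, those of Cops5, Ube2f and Psmd1 were -0.016, -0.044 and -0.0070, and that of Cops7b was -0.49.

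**Figure D2:**
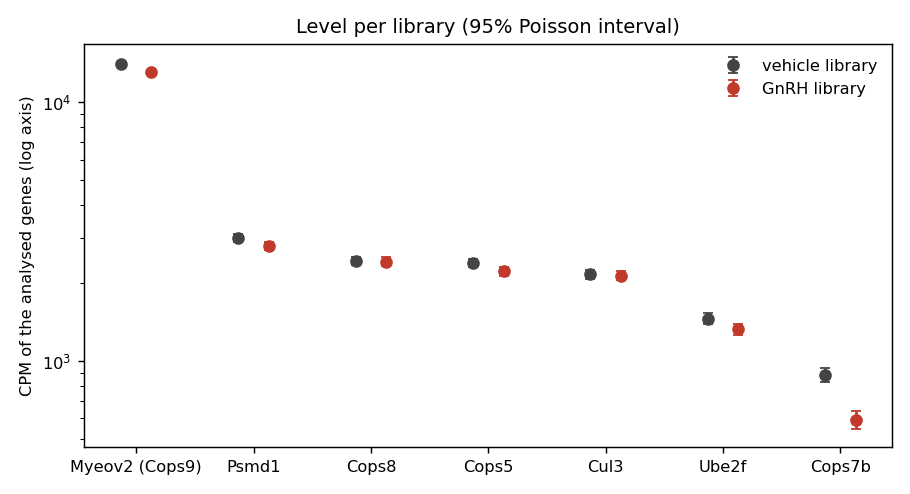
Level in CPM of the analysed genes (y axis, log scale) of Myeov2 (Cops9) and the 6 genes in the vehicle library (dark points) and the GnRH library (red points); bars are 95% Poisson intervals. The pair of points is widest apart for Cops7b, at 885 and 593 CPM.

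As the assay counts 1 tag at the 3′ end of a molecule, levels were set side by side without division by transcript length. In the vehicle library the order by CPM was Cops9, Psmd1, Cops8, Cops5, Cul3, Ube2f and Cops7b. The intervals of Cops8 and Cops5 overlapped there, and those of other neighbours in the order did not. The order was the same in the GnRH library, where the intervals of Cops5 and Cul3 overlapped and those of Cops8 and Cops5 did not.

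By the fixed sizes used here, 0 of the 6 genes were at least 2-fold higher or lower with GnRH. Over all 409 genes 1.22% were at least 2-fold higher and 0% at least 2-fold lower. At the smaller sizes of at least 25% higher or at least 20% lower (the same log2 distance), Cops7b was the 1 gene of the 6 that was lower, against 7.82% of all genes, and 0 were higher, against 5.62%. Since Cops7b was known to be among the lowest genes when the set was drawn up, nothing is read from this count.

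Whether subunits of one complex changed alike was examined from the difference between log2 ratios, in which the scaling of the libraries cancels. Cops5 and Cops8 differed by -0.10 (-0.21 to 0.012), an interval that includes 0 and excludes differences much beyond -0.21. Cops5 and Cops9 differed by 0.0074 (Cops9 minus Cops5, -0.078 to 0.093). Cops9 was lower than Cops8 by a small amount, -0.09 (-0.18 to -0.0079). Cops7b stood apart from each of the 3: by 0.47 from Cops5 (Cops5 minus Cops7b, 0.31 to 0.64), by -0.57 from Cops8 (Cops7b minus Cops8, -0.73 to -0.41) and by 0.48 from Cops9 (Cops9 minus Cops7b, 0.33 to 0.63). Of the 15 pairs among the 6 genes, 5 had an interval that excluded 0, and these were the 5 pairs with Cops7b. The other 10 included 0, with bounds that reached at most 0.26. These intervals are not adjusted for the number of pairs. The 5 pairs share the counts of Cops7b, so they are not 5 separate results. Its low ratio was known when the set was drawn up, so they describe that choice and do not test it.

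The composition of the COP9 transcripts shows the same in shares. Of 22271 UMIs of the 4 subunits in the vehicle library, Cops7b made up 4.48% (exact binomial interval 4.21 to 4.76%). In the GnRH library it made up 3.23% (2.99 to 3.48%) of 20527. The share of Cops5 was 12.1% in both libraries (11.7 to 12.5% and 11.7 to 12.6%). That of Cops8 was 12.3% (11.9 to 12.8%) and 13.2% (12.8 to 13.7%), and that of Cops9 was 71.1% (70.5 to 71.7%) and 71.5% (70.8 to 72.1%). Summed over the 4 subunits, the log2 ratio was -0.11 (-0.14 to -0.08), since Cops7b contributes few of the molecules.

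It was next asked whether the difference in Cops7b was carried by few or by many cells. At least 1 Cops7b UMI was found in 762 of 1992 vehicle cells, or 38.3% (36.1 to 40.4%), and in 536 of 1889 GnRH cells, or 28.4% (26.4 to 30.5%). With each cell thinned at random to 300 UMIs, which dropped 219 shallower vehicle cells and 108 shallower GnRH cells, the shares were 22.4% (20.5 to 24.5%) of 1773 and 16.6% (14.9 to 18.4%) of 1781 cells. The intervals did not overlap in either form. They are taken over cells of 1 library per treatment, and cells are not replicates of a treatment. The shares rest on the same Cops7b UMIs as the ratio above and add no separate evidence for it. UMIs from free RNA were not measured, as the counts used here cover called cells only.

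Numbers of Cops7b UMIs per cell were low. In the vehicle library 564 cells had 1 UMI, 166 had 2 and 32 had at least 3, with a highest count of 5. In the GnRH library 421 cells had 1, 103 had 2 and 12 had at least 3, with a highest count of 3. The mean per cell was 0.501 and 0.351, and the mean in cells with a UMI 1.31 and 1.24. In both libraries the spread was that of counting: 61.7% of vehicle cells and 71.6% of GnRH cells lacked a Cops7b UMI, against 61.9% and 71.0% expected if UMIs were spread over cells by chance in proportion to each cell's total, and variance was 0.976 and 1.02 times the expected one. A subset of cells with a distinct Cops7b level was not detectable at this depth.

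Detection of the other 5 genes at equal depth differed less between libraries. Cops8 was detected in 53.3% (50.9 to 55.6%) of vehicle and 52.2% (49.9 to 54.6%) of GnRH cells, Cops5 in 48.8% (46.4 to 51.1%) and 48.1% (45.8 to 50.5%), and Cul3 in 46.4% (44.0 to 48.7%) and 48.2% (45.9 to 50.6%). Ube2f was detected in 35.9% (33.7 to 38.2%) and 33.8% (31.6 to 36.1%). Psmd1 was found in 56.7% (54.3 to 59.0%) of vehicle and 52.3% (49.9 to 54.6%) of GnRH cells, intervals that overlapped slightly. Before thinning, the shares in vehicle and GnRH cells were 71.5% and 74.4% for Cops8, 68.2% and 70.5% for Cops5, 65.9% and 68.3% for Cul3, 52.5% and 51.7% for Ube2f, and 75.2% and 73.7% for Psmd1. The unthinned shares of Cops8, Cops5 and Cul3 were thus higher in the GnRH cells, whose median depth was greater, and at equal depth this held for Cul3 alone, with overlapping intervals.

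**Figure D3:**
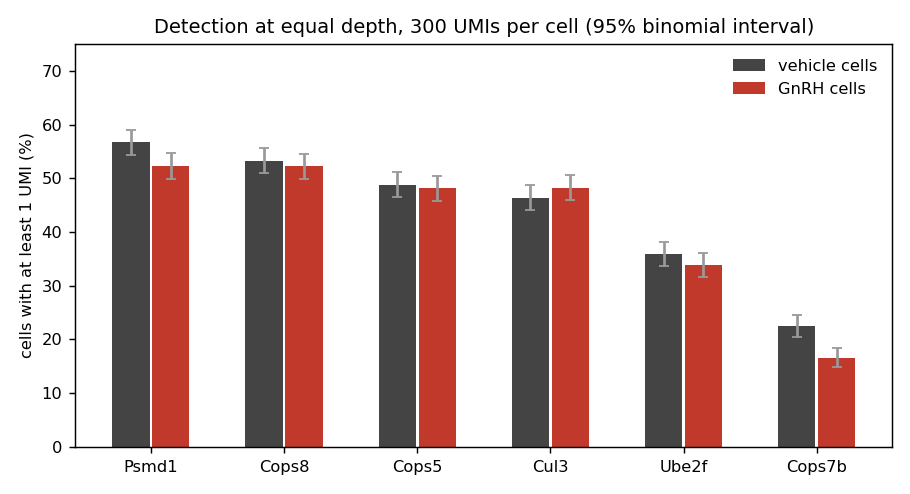
Percent of cells with at least 1 UMI (y axis) of each of the 6 genes after every cell was thinned to 300 UMIs, in 1773 vehicle cells (dark bars) and 1781 GnRH cells (red bars); bars start at 0 and whiskers are 95% exact binomial intervals. The intervals of the 2 libraries are separate for Cops7b, at 22.4% and 16.6%, and overlap for the other 5 genes.

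For Psmd1, of GnRH cells 26.3% lacked a Psmd1 UMI, against 22.6% expected, and of vehicle cells 24.8%, against 22.9%. With cells thinned to equal depth, the variance over the mean of Psmd1 was 1.03 with vehicle and 1.19 with GnRH, and that of Cops7b was 1.02 and 1.04. Over the 6 genes, variance over the expected one ranged from 0.973 for Cops8 in the GnRH library to 1.19 for Psmd1 in the same library. Over 344 genes averaging 0.1 UMI or more in a cell, the median was 1.07 in the vehicle library, and it was 1.07 over 342 genes in the GnRH library, where the upper quartile was 1.18. In the vehicle library Psmd1 was at 1.14, Cops5 at 1.11, Ube2f at 1.08 and Cul3 at 1.07. Cops9, at a mean of 7.95 and 7.76 UMIs per cell, was detected in 99.0% of cells of each library and had 1.11 and 1.17 times the expected variance.

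Most cells had UMIs of several of the genes. The median was 4 of the 6 genes per cell in both libraries. After thinning it was 3 genes with vehicle and 2 with GnRH. UMIs of all 6 genes were found in 13 thinned vehicle cells (0.733%) and 7 thinned GnRH cells (0.393%), against 0.551% and 0.355% from the product of the 6 shares. Pearson correlations between pairs of the 6 genes across thinned cells ranged from -0.031 to 0.055 over both libraries (1773 and 1781 cells). Correlations of this size in sparse counts are no finding, and subunits of the COP9 signalosome did not stand out among them: Cops5 and Cops8 were at -0.00029 with vehicle and 0.0092 with GnRH. Across the same thinned cells, no gene with at least 100 UMIs reached a correlation of 0.1 with any of the 6 genes in both libraries.

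Cells of unlike depth were then compared apart, a division made after the data had been seen. Cops7b had a negative log2 ratio in each of 4 bands of UMIs per cell. It was -0.25 (-0.76 to 0.25) in cells under 400 UMIs, where the counts were 87 and 55. In cells with 400 to under 550 UMIs it was -0.49 (-0.76 to -0.22), with 550 to under 700 UMIs -0.70 (-0.98 to -0.42), and with 700 or more UMIs -0.64 (-0.88 to -0.40). The interval included 0 in the shallowest cells alone. The bands divide the same summed UMIs and are not repeats of the ratio. Cops5 varied from 0.22 (-0.047 to 0.48) in the shallowest cells to -0.19 (-0.33 to -0.06) in the deepest, and Cops8 from 0.24 (-0.0037 to 0.49) to -0.06 (-0.19 to 0.08). The ratio of Cul3 was within -0.035 to 0.021 in all 4 bands.

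**Figure D4:**
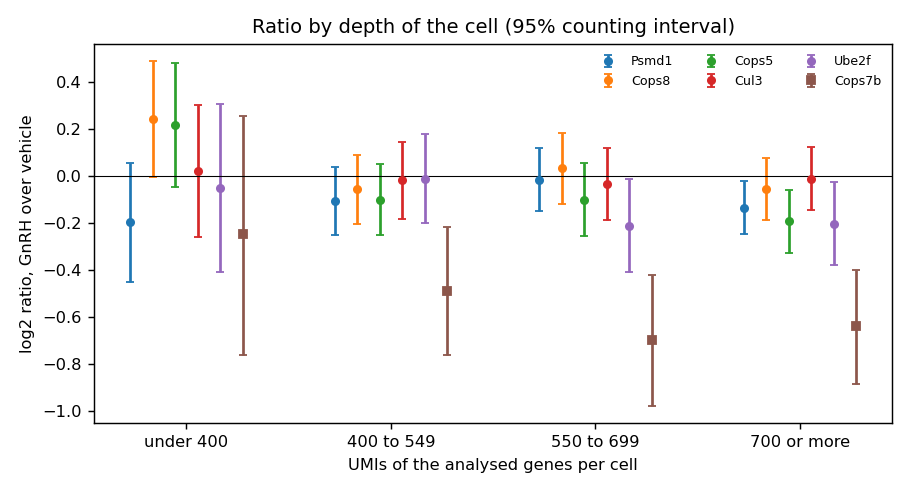
Log2 ratio of GnRH over vehicle (y axis) of the 6 genes in 4 bands of UMIs per cell (x axis); points are ratios of summed UMIs and bars 95% counting intervals. Cops7b (brown squares) is the lowest of the 6 in every band, and its interval includes 0 in cells under 400 UMIs.

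Cells of the GnRH library differ in the early gene Btg2, and levels were also computed without Btg2 in the totals. Cops7b was at 886 CPM (832 to 943) in all vehicle cells, at 733 CPM (581 to 913) in the 262 GnRH cells with 0 to 2 Btg2 UMIs and at 597 CPM (550 to 648) in the 1627 GnRH cells with more. The interval of the 262 cells overlapped both others. Ube2f was at 1457 CPM (1388 to 1530) in vehicle cells, 1650 CPM (1418 to 1909) in the 262 cells and 1335 CPM (1263 to 1409) in the 1627 cells, and it was the 1 gene of the 6 whose intervals in the 2 sets of GnRH cells did not overlap. Those of Cops9 overlapped as well. The 262 cells were shallower, with a median of 435.5 UMIs against 565.

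Genes beside the 6 on the chromosome were compared to see whether a region moved as a whole. On each side the 2 next genes with at least 100 UMIs were taken, whatever their distance. Around Cops7b these were Ptma, at 0.011 (-0.0032 to 0.025), Pde6d, at -0.16 (-0.21 to -0.11), Nppc, at -0.03 (-0.11 to 0.04), and Dis3l2, at -0.12 (-0.32 to 0.07). Pde6d, the divergent partner with the same ZNF143-type elements in its window, had 6495 vehicle and 5781 GnRH UMIs, and Cops7b was lower than it by a log2 difference of -0.42 (-0.57 to -0.27). Of 327 genes with at least 100 UMIs and a promoter window, 5 held the element. Besides Cops7b and Pde6d these were Ttll4, at -0.31 (-0.55 to -0.07), Thap4, at -0.23 (-0.34 to -0.13), and Zc3h11a, at -0.18 (-0.39 to 0.03). The intervals of Cops7b, Pde6d and Thap4 lay below the median of all genes, and those of Ttll4 and Zc3h11a held it. The Cops7b and Pde6d windows share their copies and the pattern came from the Cops7b sequence, so nothing is read from the element about the ratios. Near Psmd1, itself at -0.10, Itm2c was at -0.11, Armc9 at -0.10 and Ncl at -0.05, while the transcript 2810459M11Rik, with 242 vehicle and 425 GnRH UMIs, was at 0.82 (0.59 to 1.06). The flanking genes of Cul3, itself at -0.018, ranged from -0.29 (Mrpl44, -0.41 to -0.17) to -0.20 (Rhbdd1, -0.40 to 0.0072), with Serpine2 at -0.20 (-0.24 to -0.16) and Irs1 at -0.20 (-0.73 to 0.33), but Irs1 and Rhbdd1 start 1968 and 2052 kb away. The flanking genes ranged from -0.26 (Tcf24) to 0.07 (Snhg6) around Cops5, from -0.18 (Agap1) to 0.21 (Ackr3) around Cops8, where Agap1 starts far off, at -1148 kb, and from -0.25 (Scly) to 0.03 (Lrrfip1) around Ube2f.

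The wider ubiquitin system was described from lists written from knowledge of the pathways. Of 352 listed symbols 29 were among the analysed genes and 26 had at least 100 UMIs. Of these 26, 1 was at least 25% higher and 3 at least 20% lower, against 5.62% and 7.82% of all 409 genes, and their median log2 ratio was -0.09, the same as that of all genes. Counts this small lie near that background. The higher gene was Neurl3, which encodes a RING-type ubiquitin ligase, with 13 vehicle and 110 GnRH UMIs and a log2 ratio of 3.09 (2.26 to 4.04). The 3 lower genes were Cops7b, whose low ratio was known when the genes were chosen, Kctd18 and Hecw2. Under median-of-ratios, TMM and unscaled means 1 of the 3, Cops7b, was still past this size, and with Btg2 left out of totals or without cells under 300 UMIs 2 genes were. Over all 409 genes, 32 were past it in the main scaling. That number was 18 under median-of-ratios, 18 under TMM and 20 unscaled. It was 26 with Btg2 left out and 32 without the shallow cells. Other annotated genes overlap 15 of the 26, so the reads of these are uncertain to that extent.

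Adaptors and receptors of cullin ligases were represented by 5 such genes. Kctd18, which encodes a BTB-domain protein, had 319 vehicle and 243 GnRH UMIs and a log2 ratio of -0.38 (-0.63 to -0.14), and it overlaps a protein-coding gene on the other strand. Asb1, a SOCS-box protein, was at -0.20 (-0.37 to -0.03). Tceb1, which encodes elongin C, the adaptor of cullin ligases that use elongins, had 8796 and 8115 UMIs and was at -0.11 (-0.15 to -0.06). Fbxo36, an F-box protein, was at -0.09 (-0.23 to 0.058), and Klhl12, a BTB-domain adaptor of Cul3, at 0.08 (-0.09 to 0.25). Klhl12 and Cul3 thus both had intervals that included 0. Klhl30 and Asb18 were at 0 vehicle UMIs and 1 GnRH UMI each.

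Among 14 other enzymes of ubiquitin and SUMO conjugation, the lowest after the list was ordered by ratio were Hecw2, a HECT-type ligase, at -0.33 (-0.49 to -0.17), the deubiquitinase Usp40, at -0.25 (-0.39 to -0.11), and the p53 regulator Mdm4, at -0.20 (-0.30 to -0.10). The highest besides Neurl3 were the E2 enzyme Ube2w, at 0.09 (-0.028 to 0.22), and the RING protein Rnf25, at 0.09 (-0.09 to 0.27). Psmd1 was the 1 proteasome gene analysed, and Ube2f and Cul3 were the 2 genes analysed of the list of cullins, NEDD8 enzymes and their regulators, so that nothing can be said of those groups as a whole.

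**Figure D5:**
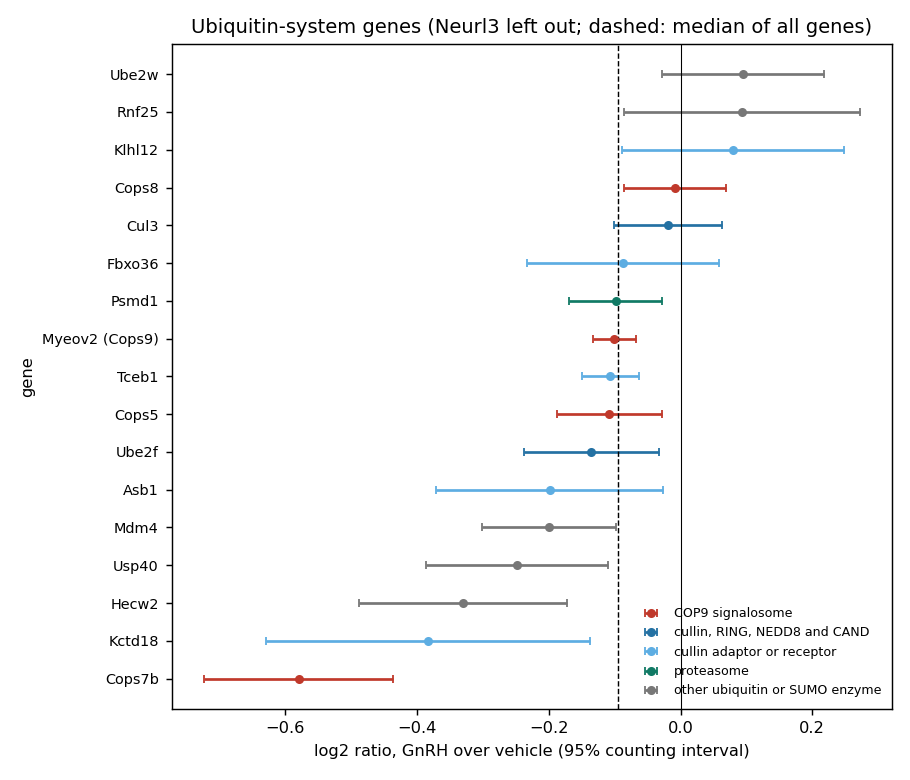
Log2 ratio of GnRH over vehicle (x axis) with 95% counting intervals for the ubiquitin-system genes (y axis) with at least 100 UMIs, coloured by list and, for the other enzymes, limited to the 3 lowest and 3 highest ratios; the solid line is 0 and the dashed line the median of all genes, and Neurl3, at 3.09, is left out. Cops7b is lowest at -0.58, followed by Kctd18 at -0.38 and Hecw2 at -0.33.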

How the data were processed

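UMI counts for each gene and called cell were made by the authors with Cell Ranger 1.3 (build mm10, per the submitters' processing notes), and these deposited counts were taken as they stood. The annotation release, the use of strand and any equalisation of depth were not given in the sources used here. An incomplete last row was left out. Cell names carry the treatment but no barcode, so barcodes shared between libraries could not be counted. The members and lists were chosen with earlier results of these data known.

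UMIs were summed per library and scaled to CPM by the total of the 1068 analysed genes. Intervals (95%) came from the Poisson distribution for sums, from the Clopper-Pearson method for shares and from exact conditional distributions for ratios and their differences (scipy 1.17.1). Genes whose sums were both 3 or less got no ratio. Called genes had at least 100 UMIs over both libraries and were at least 2-fold different or, at a smaller size, 25% higher or 20% lower. The largest and smallest 3 ratios of each list are named, and genes alike across cells only at a correlation of 0.1 or more in both libraries. No doublet caller was run; cells with the highest 5% of UMI totals were left out as an alternative. Positions are from GENCODE M21 (GRCm38) and promoter windows from RefSeq (GRCm38.p6). TMM factors came from edgeR 4.0.16. One listed gene is counted with its list but not reported here.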

Additional observations from a re-analysis of the deposited data

How the results depend on the processing

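No paired analysis was possible because there was 1 library for vehicle, 1 for GnRH, and no test. The bands of UMIs per cell were set after seeing the data. The log2 ratio of Cops7b stayed between -0.59 and -0.46 under median-of-ratios, TMM, unscaled means, mean CPM per cell, Btg2 left out of totals, both cell filters and thinning. The differences between genes cannot move under the 4 alternatives that only rescale libraries; under mean CPM per cell, both cell filters and thinning all 15 stayed within their intervals. Scaling moved ratios near 0: under median-of-ratios to -0.027 (Cops5), 0.072 (Cops8) and -0.018 (Psmd1), and under TMM to -0.016, 0.083, -0.0070 and, for Cul3, 0.073. Thinning moved Cops5 to -0.026. In cells under 400 UMIs, Cops5 reversed to 0.22, Cops7b was at -0.25, Cops8 at 0.24 and Psmd1 at -0.20. Each of these had an interval that included 0. Ube2f was at -0.012 in cells of 400 to under 550 UMIs, Psmd1 at -0.018 in those of 550 to under 700, and Cops5 at -0.19 in those of 700 or more. The cause was not tested.

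Genes at least 20% lower numbered 18 under median-of-ratios and TMM and 20 unscaled, and ubiquitin-system genes 1 in each. Thinning gave 1 gene at least 2-fold lower. With at least 20 UMIs, 9 genes were 2-fold higher and 1 lower, 40 were 25% higher and 49 were 20% lower, with 2 ubiquitin-system genes higher. With at least 1 UMI these numbers were 22 and 14, 65 and 76, and 2, as more genes of low count entered.

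Thinning lowers detection by construction, in vehicle and GnRH cells, to 48.8% and 48.1% (Cops5), 22.4% and 16.6% (Cops7b), 53.3% and 52.2% (Cops8), 46.4% and 48.2% (Cul3), 35.9% and 33.8% (Ube2f) and 56.7% and 52.3% (Psmd1). Without cells under 300 UMIs the vehicle shares were 72.5% (Cops5), 41.4% (Cops7b), 75.2% (Cops8), 70.3% (Cul3), 56.5% (Ube2f) and 79.1% (Psmd1), and the GnRH shares were 72.3%, 29.4%, 76.3%, 71.0%, 54.0% and 75.7% in the same order, so that Cops5 was no longer higher with GnRH. With unthinned log2 scaled counts, 2 genes, Cul3 and Psmd1, had a correlation of at least 0.1 in both libraries with another gene, among them Nucks1 for both against 0 with thinned counts. These differ in both depth and scale, and the cause was not tested. Depth limits Cops7b most, with a mean of 0.351 UMI per GnRH cell.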
